A study of Mus musculus with 4 samples.

Results

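The genes described are 10 regulators and markers of the epithelial-mesenchymal state, chosen by symbol: Cdh1, Epcam, Vim, Esrp1, Grhl2, Ovol1, Snai1, Snai2, Zeb1 and Zeb2. Of these, 8 were among the 21840 genes of the deposited table. Esrp1 and Snai2 were not in it, so they were not analysed here. The table held no gene at 0 in every library, and whether Esrp1 and Snai2 had any reads cannot be told. RNA was sequenced from 4T1, a mouse mammary carcinoma cell line that the labels give as wild type and epithelial, grown in medium with serum. One group of 2 libraries came from cells given phosphate-buffered saline (PBS) and the other group of 2 from cells given recombinant IL-17A (rIL17), a T cell cytokine; the labels used here state neither dose nor duration. They also do not say whether the 2 libraries of a group were separate cultures, so the p-values cover the spread between libraries alone, and that spread may be technical.

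Epithelial cells hold to each other through E-cadherin, encoded by Cdh1, and carry the adhesion molecule EpCAM, whereas mesenchymal cells build intermediate filaments of vimentin, encoded by Vim. The zinc-finger repressors of the Snail (Snai1, Snai2) and ZEB (Zeb1, Zeb2) families bind E-box motifs and repress epithelial genes such as Cdh1. Grhl2 and Ovol1 encode transcription factors that keep the epithelial programme on and oppose the ZEB factors, and Esrp1 encodes a splicing factor of epithelial cells. Carcinoma cells can hold both programmes at once, and 4T1 is widely used as a model of metastatic breast cancer.

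The E-box that Snail and ZEB proteins prefer reads CAGGTG, or CACCTG on the other strand. The 250 bases before the start of transcription are shown for an epithelial gene (Epcam) and a repressor gene (Snai1), the members with a promoter in the table used that held this motif; the sequences are from RefSeq on GRCm38.p6, 5′ to 3′ on the strand of the gene, with CAGGTG or CACCTG in capitals.
Epcam, chr17:87635729-87635978, plus strand: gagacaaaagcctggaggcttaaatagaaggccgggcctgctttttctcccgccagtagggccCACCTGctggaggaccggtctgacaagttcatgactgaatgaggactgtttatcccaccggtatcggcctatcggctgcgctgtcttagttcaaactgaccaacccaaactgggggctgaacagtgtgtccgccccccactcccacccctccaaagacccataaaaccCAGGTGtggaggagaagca
Snai1, chr2:167537945-167538194, plus strand: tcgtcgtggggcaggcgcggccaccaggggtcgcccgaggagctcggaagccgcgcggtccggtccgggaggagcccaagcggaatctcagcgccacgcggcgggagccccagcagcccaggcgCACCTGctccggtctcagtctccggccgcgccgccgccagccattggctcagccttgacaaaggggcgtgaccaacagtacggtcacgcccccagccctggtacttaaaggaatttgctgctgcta

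The Epcam window held the E-box at 2 places, beginning 187 and 19 bases before the start, and the Snai1 window held it at 1 place, 126 bases before the start. The Vim window, which lies after the first start that GENCODE M21 gives for that gene, and the windows of 4 Zeb2 starts held none. Of all 32851 promoter windows of the same length, 17.2% held at least 1 such E-box and 2.06% held at least 2. The motif AACNGGTT, bound by Grainyhead-like factors such as GRHL2, was searched on both strands as well; it was in none of these windows and in 1.79% of all. A match is a run of letters and not a measured binding site. Of the 8 members in the table, 4 (Epcam, Snai1, Vim and Zeb2) had a promoter in the RefSeq table used.

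Each library held 17511450 to 17970104 reads assigned to genes, and levels are given as the deposited normalized counts, which are reads divided by a factor close to 1 for each library. Lcn2, a known IL-17 target, had 8448 and 8498 normalized counts in PBS against 28833 and 28096 in rIL17 (log2 fold change 1.75, limma adjusted p = 0.0848). That was the smallest adjusted p of all genes tested, so even Lcn2 missed the threshold of 0.05 used below. PBS replicate 2 stood apart from the other libraries on the first principal component of the 12515 genes past the stricter filter of the methods. This component held 72.3% of the variance, and PBS replicate 2 lay at -36.5 on it. PBS replicate 1 lay at -5.21, and rIL17 replicates 1 and 2 lay at 24.0 and 17.7. The component thus also set both PBS libraries apart from both rIL17 libraries. The libraries also differed along the GC content of the transcript. This was looked at in 1636 genes with a GC content below 42% and a mean of at least 10 normalized counts. Over these genes, the median of PBS replicate 2 minus PBS replicate 1 was -0.38 on the log2 scale. The median difference between rIL17 and PBS was 0.41 in the same genes. How much of it rests on PBS replicate 2 was not tested, and treatment and this trend cannot be told apart. Values without PBS replicate 2, or with a correction for GC content, are therefore given beside many results that they turn or move, but not beside all.

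Vim and Cdh1, the best known markers of the mesenchymal and epithelial states, differed widely in level. Per kilobase of exon, Vim had 13690.5 to 15319 normalized counts over the 4 libraries, and only 0.151% of the genes in the table had a higher mean. Cdh1 had 30.5 to 45.5 per kilobase, near the middle of the table, with 46.5% of genes above it. The mean Vim level per kilobase was 395 times that of Cdh1, or 620 times with the length of the longest transcript in place of all exons. In bulk RNA, fewer cells with a transcript and less of it in each cell cannot be told apart.

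The order of the members per kilobase was Vim, Snai1 (229 to 338), Zeb2 (58.0 to 71.6), Epcam (34.9 to 61.7), Cdh1, Grhl2 (2.85 to 3.81), Zeb1 (0.669 to 1.55) and Ovol1 (0.563 to 1.15). The ranges of Epcam and Cdh1 and of Zeb1 and Ovol1 overlapped, so these neighbours did not differ beyond their spread. Those of Zeb2 and Epcam overlapped too, although Zeb2 was the higher of this pair within each library. With the longest transcript as the length, their ranges were apart (127 to 157 for Zeb2 and 37.5 to 66.4 for Epcam). Within the ZEB pair, the mean of Zeb2 per kilobase was 69.7 times that of Zeb1.

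The labelled epithelial cell type was checked against keratin genes. Krt8 and Krt18, the keratin pair of simple epithelium, had 13022 to 16683 and 11110 to 14029 normalized counts per kilobase of exon, at the height of Vim. With the longest transcript as the length, Vim lay above both, at 22192 to 24832, while the ranges of Krt8 and Krt18 stayed the same. Krt19 had 773 to 937 and Krt7 352 to 446 on the same scale. Cdh1 and Epcam lay below all 4 of these keratin genes per kilobase. The fibronectin gene Fn1, a mesenchymal matrix gene, had 7759 to 8479 per kilobase.

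**Figure D1:**
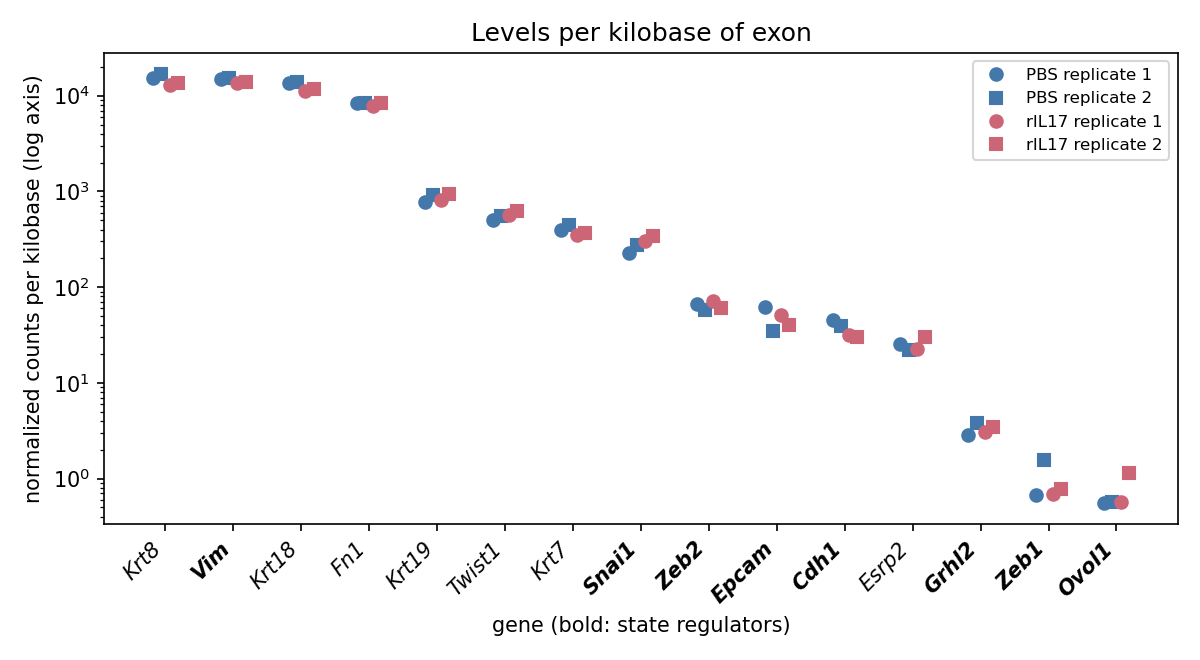
Normalized counts per kilobase of exon (log axis) of the 8 state regulators (bold), 4 keratin genes, Fn1, Esrp2 and Twist1, ordered by mean; each point is 1 library. With all exons as the length, Vim lies beside Krt8 and Krt18, while Cdh1 and Epcam lie between 30.5 and 61.7 and Grhl2, Zeb1 and Ovol1 below 4.

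Under IL-17A, each rIL17 library had less Cdh1 and Vim RNA and more Snai1 RNA than either PBS library, with mean ratios of 0.730, 0.907 and 1.28, and no member passed the test. The threshold was an adjusted p below 0.05 in limma with Benjamini-Hochberg adjustment over all 20677 genes tested, on log2(normalized count + 1). It was passed by 0 of 8 members and by 0% of all genes. At an unadjusted p below 0.05, 2 members were lower (Cdh1 and Vim) and 0 higher, beside 5.15% of all genes lower and 7.63% higher. With limma-voom 0 members passed, beside 0.00484% of all genes (1 gene). With a stricter filter on low values, described in the methods, 0 of the 6 members left passed, beside 0.807% of 12515 genes.

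The groups did not overlap for 4 of the 8 members, beside 45.4% of all genes tested, a share near that of the members. The median log2 fold change was -0.02 over the members (-0.08 after correction for GC content, 0.06 without PBS replicate 2) and 0.01 over all genes. One of those 4, Ovol1, rests on scaling alone, as its reads show further on.

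Of the epithelial members, Cdh1 (ENSMUSG00000000303, chromosome 8, 106603351 to 106670246, plus strand, in mm10 as all coordinates here) had 208 and 180 normalized counts in PBS against 144 and 139 in rIL17. The groups did not overlap, and rIL17 was the lower one, as for 20% of all genes. The mean went from 194 ± 19.8 to 142 ± 3.07 (SD, n = 2 per group). The log2 fold change was -0.45 (SE 0.12, 95% confidence interval -0.78 to -0.11, limma adjusted p = 0.373). It was -0.55 when PBS replicate 2 was left out and -0.41 after the GC correction.

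Epcam (ENSMUSG00000045394, chromosome 17, 87635979 to 87651129, plus strand), whose promoter with 2 E-boxes is shown above, had 135 and 76.6 normalized counts in PBS against 114 and 88.3 in rIL17. Its groups overlapped, and the PBS libraries differed more from each other than the group means did. Its log2 fold change was -0.02 (SE 0.35, 95% confidence interval -1.03 to 0.98, limma adjusted p = 0.986). That interval runs from 0.490-fold to 1.97-fold, so the data set no close limit on a change of Epcam. The value was -0.43 without PBS replicate 2 and 0.38 without PBS replicate 1.

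Grhl2 (ENSMUSG00000022286, chromosome 15, 37233036 to 37363569, plus strand), which encodes an activator of Cdh1 and other junction genes, had 24.5 and 32.8 normalized counts in PBS against 26.1 and 30.1 in rIL17. The rIL17 libraries lay between the PBS libraries. This gave a log2 fold change of -0.02 (SE 0.25, limma adjusted p = 0.988), which was 0.19 without PBS replicate 2.

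Ovol1 (ENSMUSG00000024922, chromosome 19, 5549136 to 5560646, minus strand), a zinc-finger factor gene of epithelial tissues, was at the limit of detection. It had 2 reads in each of 3 libraries and 4 in rIL17 replicate 2, where 3 reads is the floor used for a count of 0. Its normalized counts of 1.96 and 1.99 in PBS against 2.01 and 4.01 in rIL17 do not overlap only because each library was divided by a different factor. No fold is therefore read from it, and its fold changes in the figure and closing section rest on these few reads.

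Among the repressors, Snai1 (ENSMUSG00000042821, chromosome 2, 167538195 to 167542814, plus strand), encoding Snail, had 372 and 445 normalized counts in PBS against 495 and 549 in rIL17. The groups did not overlap, and rIL17 was the higher one, as for 25.4% of all genes. The mean went from 409 ± 52.1 to 522 ± 38.2 (SD, n = 2 per group). The log2 fold change was 0.36 (SE 0.12, 95% confidence interval -0.005 to 0.71, limma adjusted p = 0.393). It was 0.49 when PBS replicate 2 was left out and 0.42 after the GC correction; leaving out PBS replicate 2 under the stricter filter brought the limma adjusted p to 0.0187, in a fit that called 5.48% of all genes.

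Zeb2 (ENSMUSG00000026872, chromosome 2, 44983632 to 45117395, minus strand), the more abundant ZEB gene here, had 1318 and 1157 normalized counts in PBS against 1428 and 1220 in rIL17. The groups overlapped, with replicate 1 above replicate 2 in both. The log2 fold change was 0.10 (SE 0.12, 95% confidence interval -0.24 to 0.43, limma adjusted p = 0.736). Its longest transcript has a GC content of 40.6%, within the range where PBS replicate 2 stood apart and the groups differed. Without that library the log2 fold change was 0.00, and with the GC correction it was -0.34 (limma adjusted p = 0.227), so its sign turned. The antisense gene Zeb2os shares 653 exon bases with Zeb2 and had 8.02 to 12.9 normalized counts; whether the counting used strand is not given in the sources used here.

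Zeb1 (ENSMUSG00000024238, chromosome 18, 5591860 to 5775467, plus strand) had 6.87 and 15.9 normalized counts in PBS against 7.04 and 8.02 in rIL17. PBS replicate 2 was the high library, and the other 3 held 7 to 8 reads each. The log2 fold change of -0.44 (SE 0.50, limma adjusted p = 0.709) was 0.11 without that library. Its 95% confidence interval ran from 0.273-fold to 2.00-fold.

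**Figure D2:**
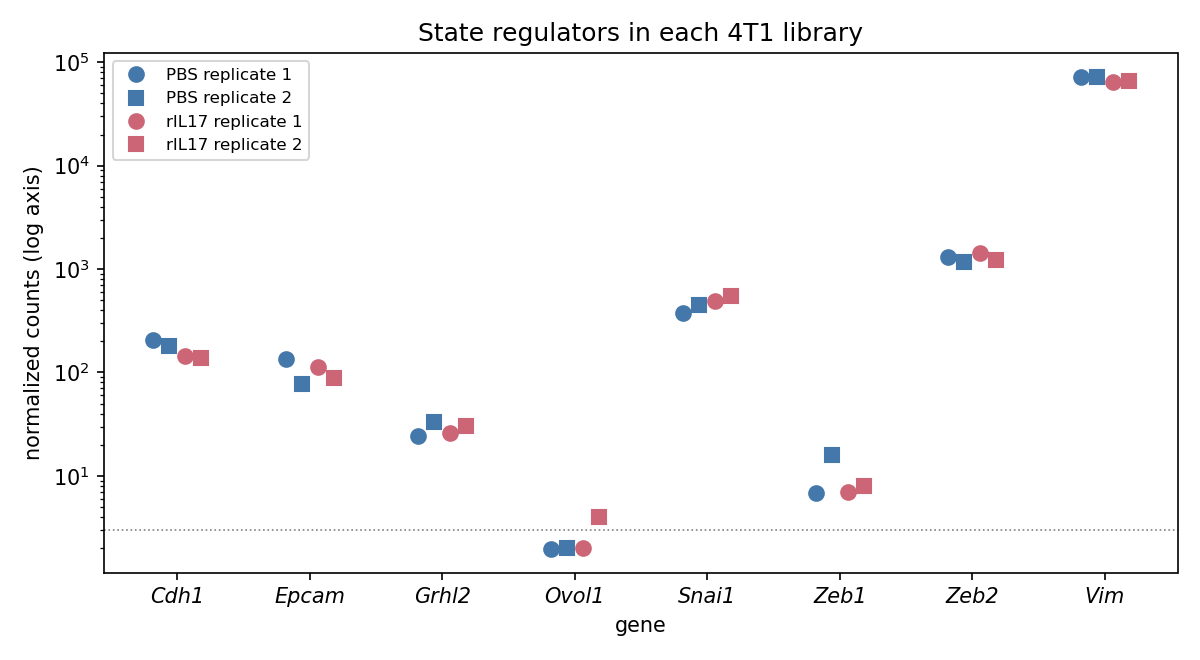
Normalized counts (log axis) of the 8 state regulators in each library; colour gives the group, symbol shape the replicate, and the dotted line marks 3 counts. Cdh1 and Vim lie lower and Snai1 higher in both rIL17 libraries, Ovol1 lies at the floor, and Epcam, Grhl2, Zeb1 and Zeb2 overlap between groups.

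The mesenchymal marker Vim (ENSMUSG00000026728, chromosome 2, 13573927 to 13582826, plus strand) had 71402 and 72660 normalized counts in PBS against 64934 and 65726 in rIL17. Here too the groups did not overlap, with rIL17 lower. Vim had a log2 fold change of -0.14 (SE 0.04, 95% confidence interval -0.26 to -0.02, limma adjusted p = 0.373). Leaving out PBS replicate 1 under the stricter filter gave a limma adjusted p of 0.049, in a fit that called 21.8% of all genes.

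Vim and Cdh1 were thus both lower in rIL17, Cdh1 by more. Per normalized count of Cdh1 there were 343 and 404 of Vim in PBS against 452 and 471 in rIL17. On the log2 scale, the gap between the 2 genes was 8.53 ± 0.165 in PBS and 8.84 ± 0.0435 in rIL17 (SD, n = 2 per group), a difference of 0.31. With each library left out in turn it was 0.19 to 0.42, and with the GC correction it was 0.22. Being made of members only, this gap is given as a description, with no test.

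**Figure D3:**
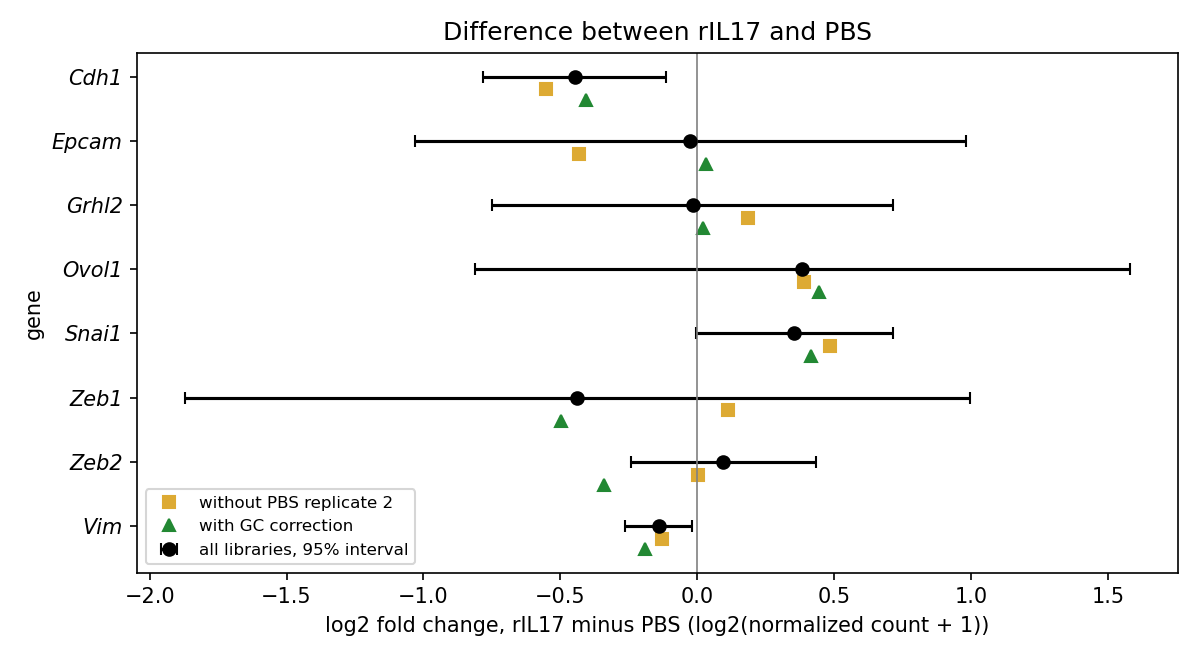
Log2 fold change (rIL17 minus PBS) of the 8 state regulators with its 95% interval from limma (black), without PBS replicate 2 (squares) and with the GC correction (triangles). Intervals of Epcam, Grhl2, Ovol1, Snai1, Zeb1 and Zeb2 include 0; Cdh1 and Vim lie below 0 before adjustment, and Zeb2 turns to -0.34 with the GC correction.

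Around these members, 5 lists of genes of the same programmes were looked at, and 0 genes of any list passed in limma over all genes. Of all 20677 genes tested, 10920 were higher and 9757 lower in rIL17, with a median of 0.01; at an unadjusted p below 0.05, 7.63% were higher and 5.15% lower. The counts of each list are to be read beside these. Of 23 tested genes of epithelial junctions and polarity, 7 were higher and 16 lower in rIL17, with a median log2 fold change of -0.04 (-0.01 after correction for GC content, -0.08 without PBS replicate 2); at an unadjusted p below 0.05, 1 was higher and 2 lower. Cgn, encoding the tight-junction scaffold cingulin, had 516 and 551 normalized counts in PBS against 423 and 357 in rIL17 (log2 fold change -0.45, limma adjusted p = 0.373). Dsp, encoding desmoplakin of desmosomes, had 181 and 177 in PBS against 219 and 230 in rIL17 (0.33). Pkp1, encoding the desmosomal protein plakophilin-1, had 1.96 and 3.98 in PBS and 0 in both rIL17 libraries, near the floor.

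Among 12 tested epithelial transcription factors other than the members, 8 were higher and 4 lower, with a median of 0.29, or 0.26 without Ehf, which was at 0 in both PBS libraries. The median was 0.18 without PBS replicate 2. Elf3, an ETS factor gene of epithelia, had 244 and 243 normalized counts in PBS against 284 and 299 in rIL17 (log2 fold change 0.26). Klf5, a zinc-finger factor gene of proliferating epithelium, had 1325 and 1176 in PBS against 1533 and 1415 in rIL17 (0.24, and 0.15 without PBS replicate 2). Trp63, encoding the basal epithelial factor p63, had 10.8 and 6.96 in PBS against 23.1 and 17.0 in rIL17. Its log2 fold change was 1.11 (limma adjusted p = 0.373), and 0.82 without PBS replicate 2. These levels are low, and the stricter filter left Trp63 out. At an unadjusted p below 0.05, 2 of these factors were higher and 0 lower.

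The other transcription factors of epithelial-mesenchymal transition (EMT) showed a median of 0.02, with 8 of 15 higher, which was -0.08 without PBS replicate 2, -0.04 with upper-quartile and -0.03 with total-count scaling. Both scalings also moved the median of all genes below 0 (-0.05 and -0.03). At an unadjusted p below 0.05, 2 of the factors were higher and 0 lower. Foxc2, a forkhead factor gene, had 441 and 426 normalized counts in PBS against 549 and 520 in rIL17 (log2 fold change 0.30). Hmga2, encoding a chromatin protein that is high in embryonic cells, had 5194 and 4190 in PBS against 5908 and 5684 in rIL17 (0.31, and 0.16 without PBS replicate 2).

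Among 9 regulators of EMT splicing, 7 were higher and 2 lower, and the median was 0.15, or 0.06 under either the GC correction or the loss of PBS replicate 2. At an unadjusted p below 0.05, 4 of them were higher and 0 lower. Mbnl1, encoding the splicing factor muscleblind-like 1, had 1596 and 1419 normalized counts in PBS against 2112 and 1983 in rIL17. Its log2 fold change of 0.44 passed with robust shrinkage (limma adjusted p = 0.0331, beside 1.3% of all genes) and was -0.07 with the GC correction, its transcript having a GC content of 39.7%. Mbnl2, its paralog, had 0.43 and kept 0.45 with that correction. Qk, encoding the RNA-binding protein quaking, had 0.54, and 0.16 with the correction. Esrp2, the paralog of Esrp1, had 110 and 95.5 in PBS against 98.5 and 131 in rIL17, and its groups overlapped. Counts per gene do not measure the splicing that these factors direct.

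Of 17 tested mesenchymal effector genes, 7 were higher and 10 lower. The median was -0.05, or -0.02 without PBS replicate 2, -0.16 with upper-quartile and -0.14 with total-count scaling; at an unadjusted p below 0.05, 0 were higher and 3 lower. Ccn2, encoding the matricellular protein CTGF, had 738 and 634 normalized counts in PBS against 358 and 479 in rIL17 (log2 fold change -0.72, limma adjusted p = 0.373). Sparc, encoding another matricellular protein, had 11694 and 12153 in PBS against 10265 and 10341 in rIL17 (-0.21). Postn, encoding the matrix protein periostin, had 1.96 and 1.99 in PBS and 0 in both rIL17 libraries, below the floor.

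**Figure D4:**
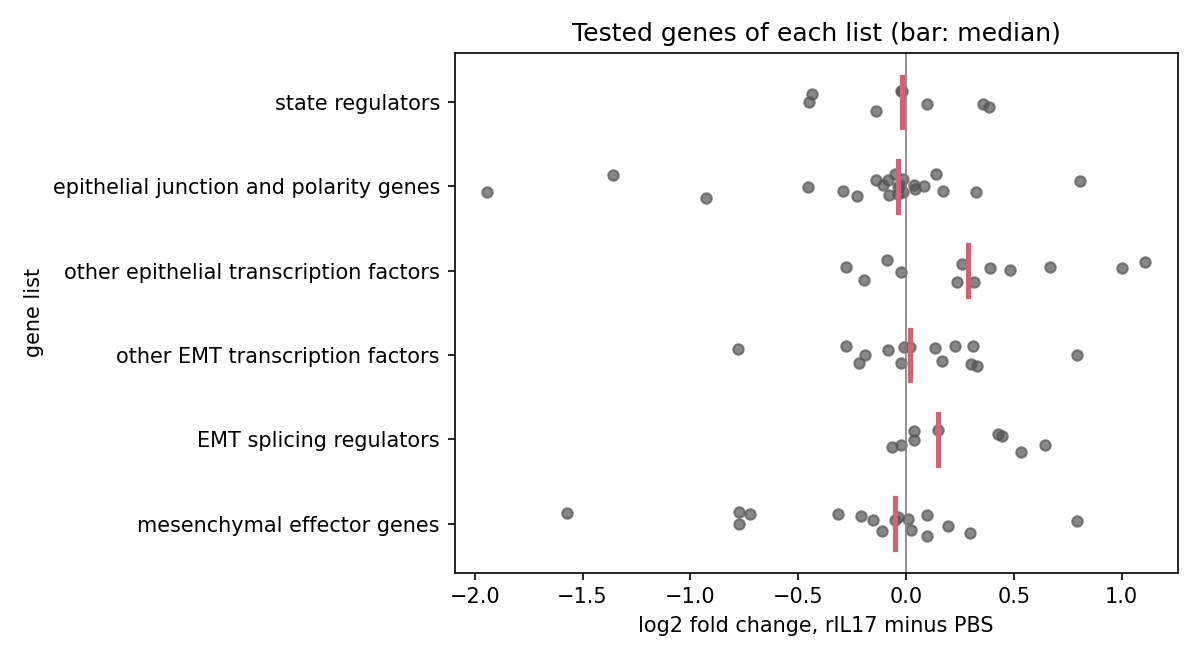
Log2 fold change (rIL17 minus PBS) of each tested gene of the state regulators and of 5 related lists; 1 point is 1 gene and the bar is the list's median, from -0.05 (mesenchymal effectors) to 0.29 (other epithelial transcription factors). Each list holds genes on both sides of 0.

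Markers of other cells were looked at beside these results. Of 9 fibroblast markers 6 were in the table, and their summed level was 2446 to 2555 normalized counts in PBS and 2969 to 2973 in rIL17. Most of it was Pdgfra, a receptor of platelet-derived growth factor (2328 and 2462 in PBS, 2855 and 2862 in rIL17), whereas Col1a2 had 0 to 2.01 over the 4 libraries. Of the 6, 3 were higher and 3 lower in rIL17, at a median log2 fold change of -0.11, or -0.25 without PBS replicate 2 and -0.31 after correction for GC content. Dcn, encoding the matrix proteoglycan decorin, had 26.5 and 17.9 in PBS against 62.3 and 46.1 in rIL17 (log2 fold change 1.26, or 0.52 after that correction), and Col1a1, a collagen chain gene, had 51.0 and 37.8 against 29.2 and 30.1. Of 8 leukocyte markers 4 were in the table, with a summed level of 121 to 123 in PBS and 123 to 134 in rIL17, nearly all from Cd68; for Ptprc, which marks all leukocytes, the values were 0 in both PBS libraries, 3.02 in rIL17 replicate 1 and 2.01 in rIL17 replicate 2. Of 4 keratin genes, Krt7, Krt8 and Krt18 were lower in both rIL17 libraries than in either PBS library, as for 20% of all genes. Their log2 fold changes were -0.23, -0.26 and -0.27, and -0.145, -0.196 and -0.244 without PBS replicate 2. Krt19 overlapped between groups (0.05, and 0.175 without PBS replicate 2). None of the 4 passed over all genes (limma adjusted p = 0.37 to 0.869). With robust shrinkage Krt18 passed (limma adjusted p = 0.0401), beside 1.3% of all genes. The part of these markers in the levels of the state regulators was not tested.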

How the data were processed

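RNA-seq was done on 4 libraries of 4T1 cells, 2 for each treatment. Per the submitters' processing notes, CASAVA, HISAT2 2.0.5 and featureCounts 1.5.0-p3 were used with mm10; for the annotation release, the strand setting and the tool behind the scaling, nothing is given in the sources used here. The deposited values are a normalized signal: in each library 100% of them lay within 0.001 of a whole multiple of 1 step, as read counts divided by 1 size factor would, and reads were counted as value over step. edgeR and DESeq2, which need raw counts, were not used; limma-voom, an alternative, was run on the deposited values.

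Symbols were matched for 21833 of 21840 genes; coordinates, exon lengths and transcript GC content are from GENCODE M21. Genes whose mean reached 1 normalized count in either group were tested with limma 3.58.1 (R 4.3.3) with a mean-variance trend on log2(value + 1), with no term besides treatment and with Benjamini-Hochberg adjustment over all of them. Fold changes on that scale understate the change of low genes. The stricter filter asks that all libraries of one of the groups reach 10 normalized counts and that the mean CPM reach 1. The GC correction subtracts a loess curve (span 0.5) of each library's departure from the mean on GC content. The fit was also run on simulated data, whose outcome is not reported here and is not used as support.

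The members and lists were chosen with earlier results of these data known. The named genes are all members, Lcn2, and the 3 genes of each list with the smallest p, of which 1 is not reported here; Esrp2, the keratins, Fn1 and the marker genes were named outside that rule, after their values were seen.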

Additional observations from a re-analysis of the deposited data

How the results depend on the processing

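Under 22 alternatives, Cdh1 stayed lower in rIL17 and Snai1 higher in every one, and Vim lower. The groups do not overlap for these genes, so leaving out a library could not turn their sign. A change of filter, robust shrinkage or the replicate block keeps the same fold change, so these fits could not turn it either. Alternatives that combine the stricter filter with another change were chosen after seeing the data; the edgeR test on recovered reads was not run. The cause of the changes below was not tested, except that leaving out a library takes the spread of its group from the other group alone. With each library left out, the log2 fold change was -0.55 to -0.34 for Cdh1, -0.43 to 0.38 for Epcam, -0.15 to -0.13 for Vim, -0.22 to 0.19 for Grhl2, 0.02 to 0.75 for Ovol1, 0.23 to 0.49 for Snai1, -0.99 to 0.11 for Zeb1 and -0.02 to 0.21 for Zeb2, and 0 members passed. Among those, the sign turned without PBS replicate 1 for Epcam (0.38), without rIL17 replicate 2 for Epcam (0.16), without PBS replicate 2 for Grhl2 (0.19) and Zeb1 (0.11), and without rIL17 replicate 1 for Grhl2 (0.08) and Zeb2 (-0.02). With the GC correction alone, with the replicate block and with the stricter filter, the sign turned for Epcam (0.03), Grhl2 (0.02) and Zeb2 (-0.34).

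Under the stricter filter with a library left out, 0 to 1 members passed: Vim (-0.15) without PBS replicate 1 and Snai1 (0.49) without PBS replicate 2. The same fits called 1 to 2734 of all genes (2734 and 686 without PBS replicates 1 and 2, 1 and 4 without rIL17 replicates 1 and 2), 0 to 3 junction genes, 0 to 3 epithelial factors, 0 to 3 other EMT factors, 0 to 4 splicing regulators and 0 to 3 mesenchymal effectors (1 without PBS replicate 2). Of all genes, 0 passed as reported, 101 with the stricter filter, 103 with a filter blind to the groups, 1 with upper-quartile scaling, 24 with total-count scaling, 1 with limma-voom, 268 with robust shrinkage (153 with the stricter filter too), 99 with the GC correction and 308 with that and the stricter filter. Of the splicing regulators, 1 passed with robust shrinkage and 1 with the GC correction and stricter filter.

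The replicate numbers are only numbers: the labels tie them to no shared culture, and over genes the difference between replicates 1 and 2 in PBS correlated with that in rIL17 at 0.157. With the replicate block 0 genes and 0 members passed, 67 genes with the GC correction, and 1032 genes with the stricter filter, among them 0 members, 1 junction gene, 1 EMT factor, 4 splicing regulators and 1 mesenchymal effector. Depth limits Ovol1 and Zeb1, which had 2 to 16 reads in a library.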
